A study of Mus musculus with 2 samples.

Results

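The promoters, surrounding open chromatin and footprints of 8 core genes of the daily clock were described in mouse cerebellum. The genes were chosen by name from the 21911 coding genes annotated on the autosomes, X and Y: the Period genes Per1, Per2 and Per3, the cryptochrome genes Cry1 and Cry2, and the genes of the positive arm, Arntl (the symbol of Bmal1), Clock and Npas2. For each gene, everything within the gene body and 50 kb on each side was taken, 1353.9 kb in all. In DNase-seq, nuclei are treated with DNase I, which cuts where chromatin is open, and the ends it leaves are sequenced. A peak is a stretch with many cuts, and a footprint is a short stretch within cut DNA that was cut less than its surroundings. The tissue was whole cerebellum of male mice of the strain B6CASTF1/J, a first-generation cross of B6 and CAST mice, at 8 to 10 months, and the labels name no treatment. There was 1 group of 2 biological replicates, with 1 library each. Every library stood for a pool of 2 biosamples, and both pools carry the same donor label. The sources used here do not give whether the pools shared animals, so the replicate spread may be technical in part. They do not give the time of day at which tissue was taken either, and the alleles of the hybrid were not resolved.

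In the mammalian clock, ARNTL pairs with CLOCK, or with its relative NPAS2 in the forebrain and some other tissues, and the pair binds E-boxes and switches on the Period and cryptochrome genes. The PER and CRY proteins then gather in the nucleus and repress the pair, which closes a feedback loop that runs for about a day. Further elements add to the timing: D-boxes, bound by DBP, TEF, HLF and NFIL3, ROR response elements, bound by the ROR and REV-ERB receptors, and cyclic AMP response elements (CRE), bound by CREB. Most cells of the cerebellum are granule neurons, and cells of the cerebellum, like those of most tissues, are known to run such a clock.

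For replicates 1 and 2 the authors listed 61776 and 71141 peaks in a stricter list, 99710 and 114935 in a longer one, and 314116 and 320832 footprints. The sources used here do not give the sequencing depth. A gene was said to have a peak at a transcription start (a TSS peak) where a peak of the stricter list overlapped the stretch from 1 kb before to 1 kb after any annotated transcript start. The labelled tissue was checked against marker genes, and a TSS peak stood in both replicates at 8 of 8 granule cell genes, 3 of 5 Purkinje cell genes, 2 of 4 astrocyte genes, 1 of 4 oligodendrocyte genes, 0 of 4 microglia genes and 0 of 4 genes of other tissues. In such mixed tissue a missing peak does not show that a promoter was closed in every cell. Fewer cells with an open site and less opening per cell cannot be told apart.

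The sequences below are the clock elements that lay in footprints close to the starts of the 8 genes in both replicates. Capitals mark the motif: CACGTG for the E-box, CACGTT for the non-canonical E-box, and TTATGTAA or TTACGTAA for the D-box, each searched on both strands and without mismatch, so that AACGTG is a match to CACGTT on the other strand. Each line spans the footprints of both replicates over the motif plus 3 bases on each side, read 5′ to 3′ on the gene's own strand from mm10. The number in each name is the distance in bp from the nearest annotated start to the motif, negative before the start.
Per1 E-box at -331, chr11:69094860-69094898, plus strand: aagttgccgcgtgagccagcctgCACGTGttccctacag
Per1 E-box at -147, chr11:69095048-69095080, plus strand: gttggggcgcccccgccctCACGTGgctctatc
Per1 E-box at -162 from its intragenic start, chr11:69098774-69098797, plus strand: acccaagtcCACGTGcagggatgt
Per2 non-canonical E-box at 7, chr1:91459313-91459360, minus strand: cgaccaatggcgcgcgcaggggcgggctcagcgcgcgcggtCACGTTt
Per3 D-box at -155, chr4:151044806-151044833, minus strand: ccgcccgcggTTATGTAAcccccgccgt
Cry1 E-box at -48, chr10:85185100-85185124, minus strand: tgccggtggtCACGTGgggtgcatg
Cry2 non-canonical E-box at -190, chr2:92434206-92434238, minus strand: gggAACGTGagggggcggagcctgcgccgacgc
Clock non-canonical E-box at 551, chr5:76303968-76304007, minus strand: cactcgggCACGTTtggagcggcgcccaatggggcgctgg
Npas2 E-box at -710 from an internal start, chr1:39340835-39340871, plus strand: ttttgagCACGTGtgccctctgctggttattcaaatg

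Such an element lay under a footprint in both replicates at 7 of the 8 genes, all but Arntl. By the same rule it did at 3.73% of all coding genes, at 6.64% of those with a peak at a start in both replicates, and at 13.1% of the 1002 whose strongest such peak reached the 90th percentile of signal in both. This count was chosen after its values had been seen. It took in the E-box, the non-canonical E-box and the D-box, and left out the CRE and the ROR response element. The CRE (TGACGTCA) occurred 0 times near the starts of the 8 genes. Near all coding starts, 565 and 590 of its matches lay in a footprint. The shares over all coding genes thus hold for the counted elements alone. With footprints not widened the count was 6, since the Per2 match was then not wholly covered. The elements of Per2, Per3, Cry1 and Cry2 and the first pair of Per1 lay at or before the start of the gene model. Those of Clock and Npas2 and the intragenic one of Per1 lay in introns.

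A TSS peak was found in both replicates at all 8 genes. Over all coding genes the share was 58.4% in replicate 1, 57.2% in replicate 2 and 55.9% in both, and the other 20 clock genes examined (receptors, output factors, kinases and ubiquitin ligases) also had one in both replicates, 20 of 20. The clock genes had been seen to have TSS peaks before the genes were chosen, so these counts describe them and test nothing. The signal of the strongest TSS peak, in the authors' units, had a median over the 8 genes of 11.9 in replicate 1 and 8.72 in replicate 2. The median over coding genes with a TSS peak was 4.83 and 3.38, and the 90th percentile was 10.9 and 8.5. Signal ran higher in replicate 1 across the genome, with a median log2 ratio of replicate 1 over replicate 2 of 0.55 over 12238 genes, so values are compared between genes within a replicate. The SD given with a mean signal, and any overlap of values across replicates, takes in this shift.

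**Figure D1:**
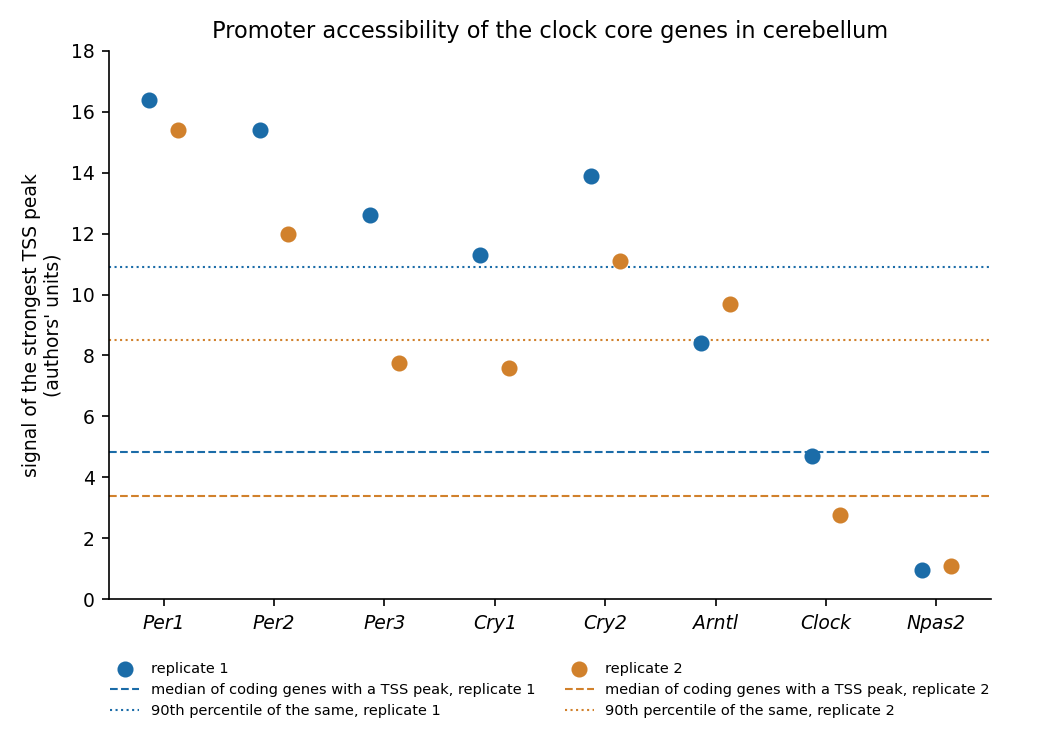
Signal of the strongest TSS peak (vertical axis, authors' units) of each clock gene in replicate 1 (blue) and replicate 2 (orange), with the median (dashed) and 90th percentile (dotted) of coding genes with a TSS peak in the same colours. Per1, Per2 and Cry2 lie above the 90th percentile in both replicates, Clock lies below the median, and Npas2 is the lowest at 0.949 and 1.09.

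Among the repressors, Per1 (chr11:69095217-69109960, plus strand) had the strongest TSS peak of the 8, with a signal of 16.4 in replicate 1 and 15.4 in replicate 2 (15.9 ± 0.748, SD, n = 2). It ranked 153 and 62 among the 21911 coding genes. Per1 is the Period gene that also responds quickly to light, glucocorticoids and cyclic AMP. Its strongest peak, 420 and 400 bp wide, ended before the start of the gene model, with its middle at -226 and -236 bp. An intragenic start at position 69098948, 3731 bp downstream, lay under a peak of its own of 13 and 9.28, and a further start at 69100152 lay under a weaker one of 4.8 and 3.94. Several starts of Per1 were thus open. For Per2, Per3 and Cry1 the annotated starts deeper inside the gene had no peak within 1 kb.

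Per2 (chr1:91415982-91459324, minus strand) came next with 15.4 and 12 (13.7 ± 2.45, SD, n = 2), at ranks 232 and 311. Per2 encodes the PER protein whose level is most often used to time the loop. Its peak was narrow, 180 and 200 bp, and its middle lay at -227 and -237 bp from the start. The non-canonical E-box at 7 bp thus lay outside the peak. It lay in a footprint of both replicates only with the widening by 3 bases. The motif spans 91459314 to 91459319, and both footprints begin at 91459316. Those footprints also held a GC box (GGGCGG) and a CCAAT box. Per3 (chr4:151003652-151044665, minus strand) had 12.6 and 7.76 (10.2 ± 3.41, SD, n = 2) at ranks 717 and 1648. The 3 Period genes kept the order Per1, Per2, Per3 in both replicates, but Per2 in replicate 1 equalled Per1 in replicate 2 at 15.4.

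The cryptochrome genes encode the repressors that bind the ARNTL and CLOCK pair most directly. Cry2 (chr2:92403646-92434043, minus strand) had a TSS signal of 13.9 and 11.1 (12.5 ± 1.92, SD, n = 2), at ranks 430 and 427. Cry1 (chr10:85131700-85185064, minus strand) had 11.3 and 7.58 (9.44 ± 2.64, SD, n = 2), at ranks 1127 and 1749. Cry2 was thus above Cry1 in both replicates, while the lower value of Cry2, 11.1, and the higher of Cry1, 11.3, overlapped across replicates. At Cry1 the start itself lay under the peak, and a neighbouring peak at -237 and -317 bp had 8.12 and 5.5. Per3 stood above Cry1 within each replicate, at 12.6 against 11.3 and 7.76 against 7.58. In replicate 2 they were thus nearly equal, and with 2 libraries their order is a description.

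The positive arm was uneven. Arntl (chr7:113207465-113314126, plus strand), the partner without which the loop is known to stop, had 8.41 and 9.68 (9.05 ± 0.902, SD, n = 2). Its rank was 2720 in replicate 1 and 781 in replicate 2, the widest shift in rank of the 8. In replicate 2 it stood above Per3 and Cry1, and in replicate 1 below them. Clock (chr5:76209868-76304792, minus strand) had 4.7 and 2.77 (3.73 ± 1.36, SD, n = 2) at ranks 6555 and 7330, under the median of coding genes with a TSS peak. Npas2 (chr1:39193731-39363236, plus strand), which can stand in for Clock, had 0.949 and 1.09 (1.02 ± 0.0976, SD, n = 2) at ranks 11742 and 10844. The groups did not overlap between these steps: both values of Clock were below every value of the other genes but Npas2, and both values of Npas2 were below both of Clock. The strongest TSS peak of Npas2 was not the same in both replicates. In replicate 1 it lay before an internal start, 147125 bp into the gene, and in replicate 2 it lay at -920 bp from the gene model's start, although each of those peaks was found in both.

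Ratios between the replicates differed among the genes. The log2 ratio of replicate 1 over replicate 2 was -0.20 for Arntl and -0.20 for Npas2, against a median of 0.55 over coding genes and a 10th percentile of 0.11. Only 2.86% and 2.9% of coding genes with a TSS peak in both replicates had a lower ratio. For Npas2 the ratio sets different peaks against each other. The strongest peak within 1 kb of its gene model's start had 0.849 in replicate 1 and 1.09 in replicate 2. Near the internal start the values were 0.949 and 0.904. Weaker peaks near its first starts were higher in replicate 1, at 0.799 against 0.398, 0.664 against 0.322 and 0.571 against 0.31. The Arntl promoter stood relatively higher in replicate 2. Per1 had a ratio of 0.10, with 9.63% of genes below it. Per3, Cry1 and Clock had 0.70, 0.58 and 0.76, and Per2 and Cry2 had 0.37 and 0.31, all between the 10th and the 90th percentile (0.88). With 1 pool behind each library, a difference between the pools and a difference in handling cannot be told apart.

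Of the other 20 clock genes, those with the highest mean TSS signal were Btrc, a subunit of a ubiquitin ligase that marks PER proteins for breakdown, at 15.4 ± 3.55 (SD, n = 2), Nr1d2, the gene of REV-ERB beta, at 14.8 ± 0.851, and Dbp, a D-box activator, at 13.2 ± 0.367. Their median was 6.26 and 4.32, between that of the 8 core genes and that of all coding genes with a TSS peak. Per1 at 15.9 thus stood at the level of Btrc, within the spread of both.

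Footprints were counted around the starts. Within 1 kb of a start, the 8 genes had 144 footprints in replicate 1 and 148 in replicate 2, a median of 15.5 and 16 per gene, against 11 and 10 for coding genes with a TSS peak. Such counts take in every annotated start of a gene and were not scaled by the length searched. Of those footprints 66% and 65.5% were found in the other replicate with an overlap of 1 bp or more, against 56.6% and 62.1% near the starts of all coding genes. Npas2 differed from the other 7, with 14 and 12 footprints of which 2 and 2 were shared. Per1, with several open starts, had the most at 32 and 38. At the other genes the count ran from 11 at Per2 in replicate 1 and at Cry2 in replicate 2 to 23 at Clock in replicate 2. Within the strongest TSS peak, footprints covered 34.2% to 49.3% of the bases at the 7 genes other than Npas2, and 16.7% and 23.1% at Npas2.

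**Figure D2:**
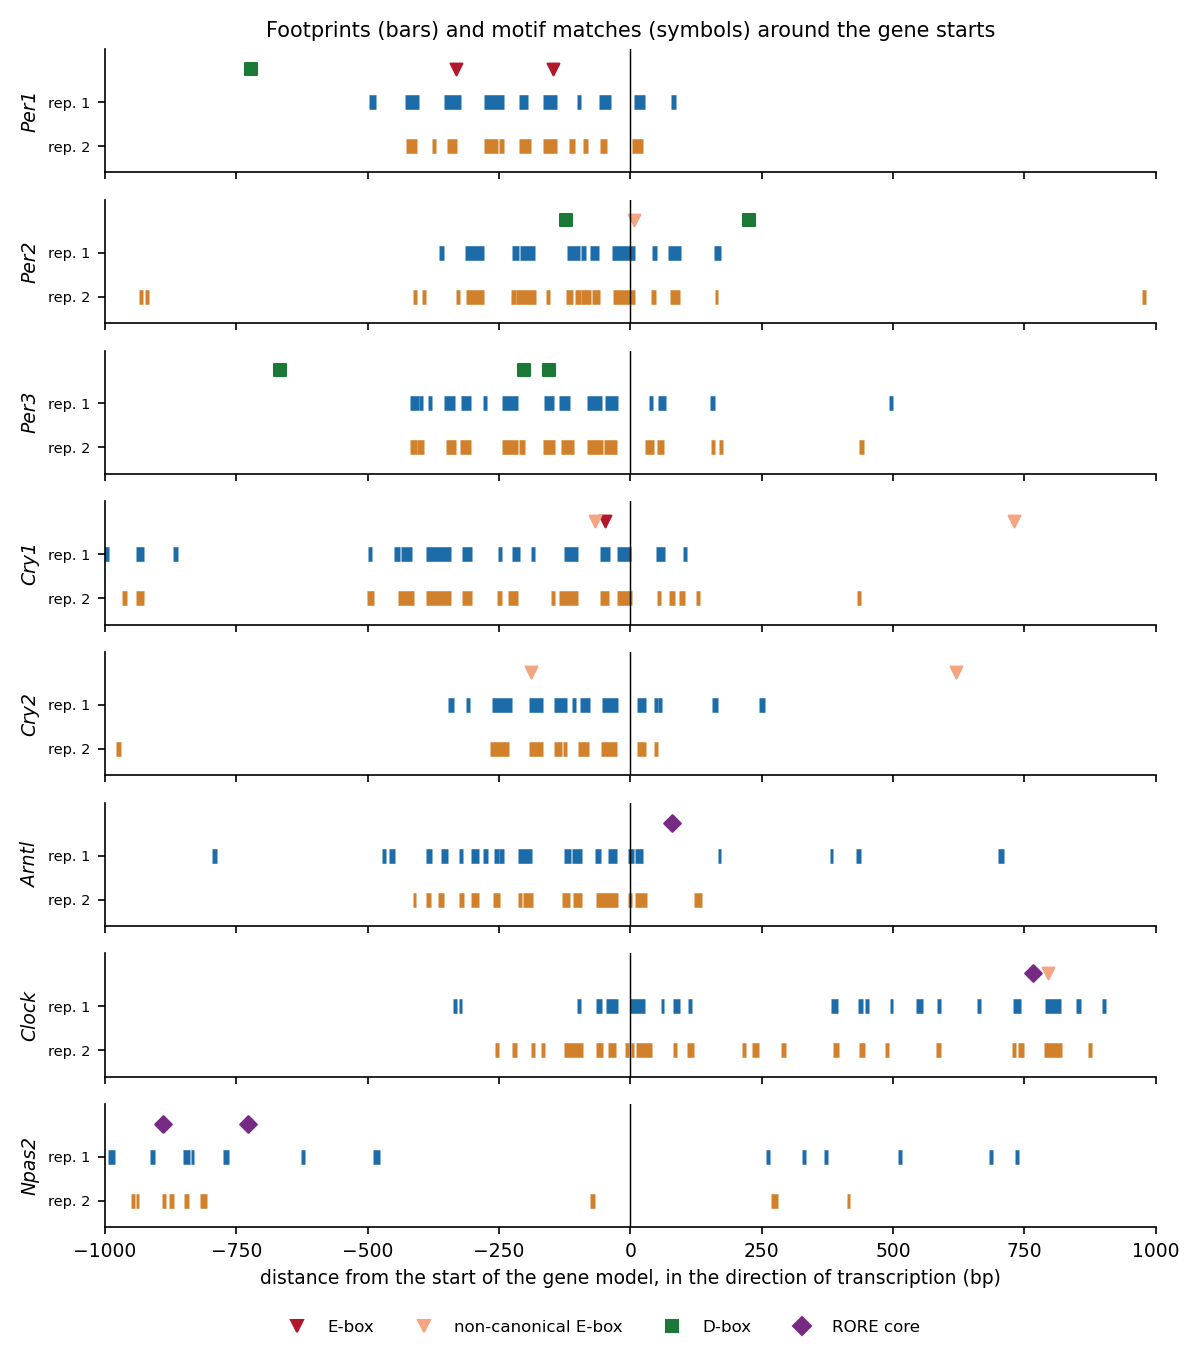
Footprints (bars, replicate 1 blue, replicate 2 orange) and motif matches (symbols above) within 1 kb of the start of each gene model, with distance in bp on the horizontal axis, negative before the start. The E-boxes of Per1 at -331 and -147 and of Cry1 at -48 stand over bars in both replicates. Footprints and motifs of internal starts farther away are outside the range drawn, and sharing is not marked. With those footprints counted, 2 near the Npas2 starts are shared in each replicate, against 8 or more at each other gene.

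E-boxes were the motif of interest for the negative arm, since the ARNTL and CLOCK pair binds them. Within 1 kb of the starts of the 8 genes, CACGTG occurred 9 times, and 5 of these lay in a stricter peak. All 5 lay in a footprint in both replicates: the 3 of Per1 printed above, that of Cry1 and that of Npas2. The Npas2 E-box lay by the internal start of a processed transcript, in footprints of 25 and 31 bp that ran past the motif. Which factor covered that stretch was not tested. Over all coding genes, 33.6% of 2153 such E-boxes in peaks lay in a footprint in replicate 1 and 33.7% of 2159 in replicate 2. In peaks at or above the 90th percentile of TSS signal, 10.9 and 8.5, the shares were 55.7% of 185 and 64.6% of 164. A further E-box of Per1, at 444 bp from its last start, lay in a footprint of replicate 1 and outside any stricter peak. The count over peaks was made after these values had been seen, and with 5 sites it is a description.

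The non-canonical E-box CACGTT occurred 9 times near the starts and lay in a footprint 3 times in replicate 1 and 4 times in replicate 2 (33.3% and 44.4%, against 2.01% and 1.82% near all coding starts, in or out of peaks). Of those in peaks, 2 of 3 and 2 of 4 lay in a footprint, against 17.3% and 15.4% near all coding starts, and 37% and 39% in peaks at or above the 90th percentile. Those found in both replicates were at 7 bp in Per2, -190 bp in Cry2 and 551 bp in Clock. The Per2 match was covered only with footprints widened by 3 bases. Per2 had no CACGTG near its starts, and a non-canonical E-box at its start is known to drive its rhythm. Cry2 likewise had no CACGTG near its starts. The match at -67 bp of Cry1 lay in the same peak but in no footprint of either replicate.

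The D-box occurred 9 times near the starts, and the Per3 promoter held the matches that lay in footprints. Among 32851 RefSeq promoters of 300 bases, from 250 before to 50 after a start, 1.06% held a D-box. The Per3 promoter held 2. The match at -155 bp lay in a footprint in both replicates, and that at -202 bp in replicate 2. Near all coding starts 0.869% and 1.57% of D-boxes lay in a footprint, and 22.5% and 26.4% of those in peaks did. In peaks at or above the 90th percentile, 10.9 and 8.5, 76.9% of 13 and 64.3% of 14 did. A footprint on a D-box was thus common in such strong peaks. The Per3 peak was among them in replicate 1, at 12.6. In replicate 2 its signal was 7.76, under that percentile, and the match at -155 bp lay outside any stricter peak. The 250 bases before the RefSeq starts of Per3 and Cry1 (GRCm38.p6) are shown because they place the D-box pair of Per3, and the E-box and non-canonical E-box of Cry1, in their promoters. Capitals mark those motifs.
Per3 promoter with D-boxes in capitals, chr4:151044666-151044915, minus strand: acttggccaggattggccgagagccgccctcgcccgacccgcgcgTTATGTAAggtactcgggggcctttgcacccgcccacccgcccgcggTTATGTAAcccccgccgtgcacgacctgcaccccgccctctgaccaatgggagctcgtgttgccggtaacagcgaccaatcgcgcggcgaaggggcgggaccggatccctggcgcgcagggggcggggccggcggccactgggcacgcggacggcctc
Cry1 promoter with E-boxes in capitals, chr10:85185055-85185304, minus strand: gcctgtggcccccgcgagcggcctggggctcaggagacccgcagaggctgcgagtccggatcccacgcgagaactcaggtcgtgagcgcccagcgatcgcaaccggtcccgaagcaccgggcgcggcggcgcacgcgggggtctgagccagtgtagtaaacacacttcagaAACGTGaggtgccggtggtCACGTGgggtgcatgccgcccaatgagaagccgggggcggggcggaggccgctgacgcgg

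RefSeq promoters were found for 7 of the 8 genes, in 11 entries. Of all 32851 promoters, 7.15% held CACGTG, 4.68% CACGTT, 6.45% the core of a ROR response element (TAGGTCA or TGGGTCA, the RORE core), 1.79% a full CRE (TGACGTCA) and 20.8% its part TGACG, which is contained in the full CRE. Among the 11 entries, CACGTG stood once each in entries of Per1 and Cry1, CACGTT once each in Cry1 and Cry2, and the RORE core once in Arntl, while none held the full CRE. A match is a run of letters and not a bound site, and no match says only that the letters are not in that window.

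The RORE core, through which ROR and REV-ERB receptors are known to control Arntl, occurred 13 times within 1 kb of the starts of the 8 genes and lay in a footprint 0 times in replicate 1 and 1 time in replicate 2, the latter at -889 bp of Npas2. Near all coding starts 0.93% of 23553 matches and 0.824% of 23553 matches lay in a footprint. Of the matches in peaks, 0 of 3 and 1 of 2 did, against 12.6% and 10.9% near all coding starts, so these few sites cannot be set apart from the background. Arntl had 4 of the 13 matches, none in a footprint or a stricter peak of either replicate, and the one closest to a start stood at -13 bp.

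The open stretch of Arntl lay just before its start. In the 250 bases before the RefSeq start, CCAAT or its complement ATTGG, the box bound by the factor NF-Y, occurred 7 times, always on the same strand. This promoter was singled out after its values had been seen. Its sequence, from RefSeq on GRCm38.p6, carries the boxes in capitals.
Arntl promoter with CCAAT boxes in capitals, chr7:113207215-113207464, plus strand: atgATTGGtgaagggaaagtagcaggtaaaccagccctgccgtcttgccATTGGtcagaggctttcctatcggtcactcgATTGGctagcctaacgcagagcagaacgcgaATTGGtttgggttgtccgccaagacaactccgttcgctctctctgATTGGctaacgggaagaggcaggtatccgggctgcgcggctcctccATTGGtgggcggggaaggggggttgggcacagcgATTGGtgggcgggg

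Of these 7 boxes, 3 lay in a footprint in replicate 1 and 3 in replicate 2, with 2 in both, at -199 and -92 bp. In peaks near all coding starts 30.2% and 28.8% of CCAAT boxes lay in a footprint, and in peaks at or above the 90th percentile 42.8% and 44.8% did. The Arntl peak, at 8.41 and 9.68, reached that percentile in replicate 2 alone. With 7 boxes, 3 in a footprint cannot be set apart from either share. Over the 250 bases before the start in all 32851 RefSeq promoter entries, the median number of CCAAT boxes was 0, and 3 entries (0.00913%) had as many as 7. Of those 3, 2 were the overlapping entries of Arntl itself and the third was Gm1096. Over the 8 genes together, CCAAT stood in 10.4% of the footprints near starts in replicate 1 and 12.2% in replicate 2, against 2.38% and 2.67% near all coding starts. GC boxes (GGGCGG) stood in 19.4% and 16.2%, against 13.1% and 12.2%, and E-boxes in 4.17% and 3.38%, against 0.6% and 0.626%. Most of these E-box footprints lay at Per1, and the others at Cry1 and Npas2. These pooled shares were not set beside footprints in peaks at or above the 90th percentile alone.

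**Figure D3:**
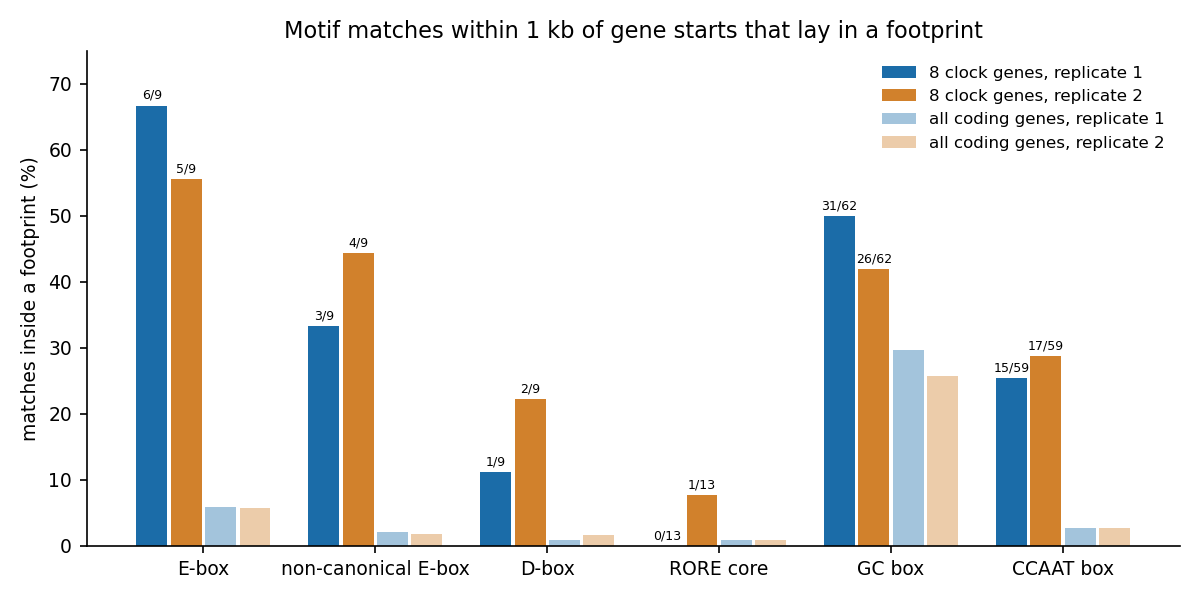
Share of motif matches within 1 kb of gene starts that lay in a footprint (vertical axis, percent), for the 8 clock genes (full colours) and all coding genes (pale), by replicate, with matches in a footprint over all matches printed on the bars of the clock genes. E-boxes of the clock genes stand at 66.7% and 55.6% against 5.9% and 5.7%, and RORE cores at 0% and 7.69% against 0.93% and 0.824%; matches outside peaks are included, and the clock genes had a TSS peak more often than other genes.

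Beyond the starts, the windows of the 8 genes held 141 stricter peaks in replicate 1 and 175 in replicate 2. Of these, 24 and 28 stood at the genes' own promoters, 57 and 63 at promoters of other genes, 27 and 40 inside the gene itself, 12 and 14 inside another gene and 21 and 30 between genes. Distal peaks, whose middle lay over 1 kb from every annotated start, numbered 60 and 84. The density was very uneven. Per1, in a gene-rich stretch, had 46 and 59 peaks, or 45.8 ± 8.01 per 100 kb (SD, n = 2). Cry2 had 21.9 ± 2.71, Per2 15.7 ± 4.44 and Cry1 10.4 ± 0.922. Then came Arntl at 7.26 ± 0.684, Per3 at 5.67 ± 1, Npas2 at 3.9 ± 0.262 and Clock at 2.57 ± 0, with 5 peaks in each replicate. The median over coding genes was 3.58 and 4.05 per 100 kb, so Clock lay below it in both replicates, and Npas2 just above it.

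**Figure D4:**
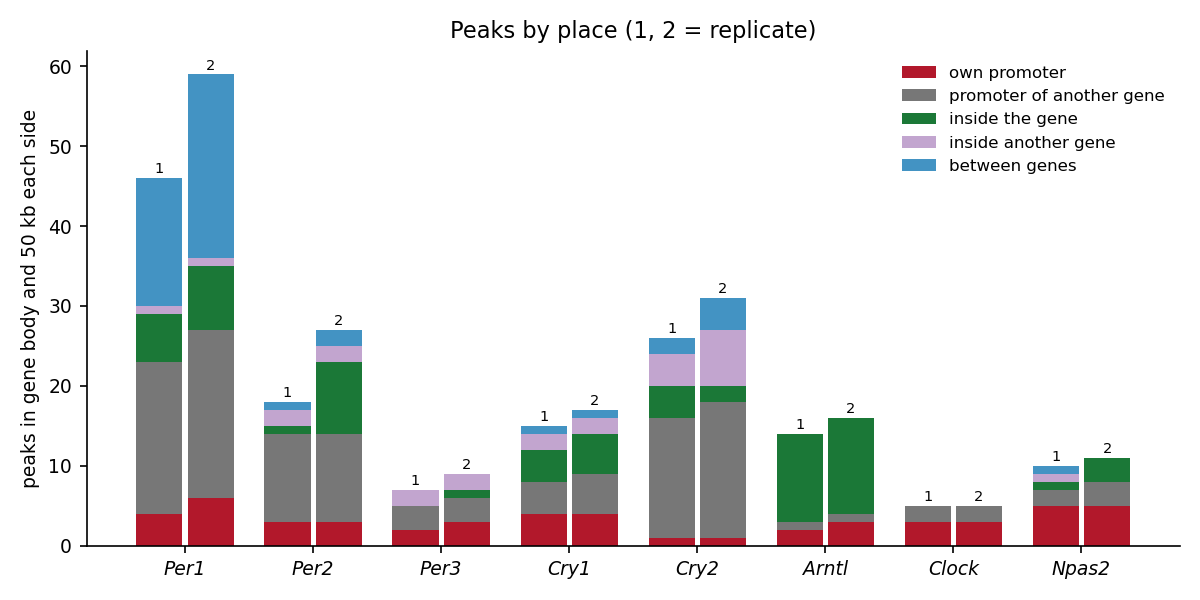
Number of stricter peaks (vertical axis) in the gene body and 50 kb each side of each clock gene, by replicate (1 and 2 above the bars), split by where the middle of the peak lay. Per1 has the most with 46 and 59, peaks of Arntl lie mostly inside the gene, and Clock has 5 in each replicate with none distal.

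Many of the peaks around Per1 belonged to its neighbours. Borcs6, Tmem107, Vamp2, 9130213A22Rik, Hes7 and Aloxe3 had a TSS peak in both replicates within the Per1 window, and the nearest of them, Vamp2, a gene of synaptic vesicle fusion, starts at -5611 bp from Per1 with 7.82 and 4.49. Around Per2 these were Ilkap, Hes6 and Traf3ip1, around Per3 Vamp3 and Gm13090, around Cry1 Fhl4, Tmem263 and Mterf2, and around Cry2 Large2, Pex16 and Slc35c1. Arntl had Btbd10, Clock had Tmem165, and Npas2 had Rpl31 and Tbc1d8. The promoter of Rpl31, a ribosomal protein gene, had 10.7 and 7.66, far above Npas2 itself. Vamp3 and Per3 were close in signal, at 13 and 8.03 for Vamp3.

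The strongest distal peak found in both replicates differed in place from gene to gene. Arntl had the strongest inside a gene body, in an intron 63326 bp after the start (chr7:113270681-113270900), with 6.9 and 6.34. That is not far below its own promoter peak, and 11 and 12 of the peaks in the Arntl window lay inside the gene, with none between genes. Per1 had 7.01 and 4.7 at -32086 bp between genes (chr11:69063021-69063240). Cry1 had 5 and 4.08 at -36057 bp inside Gm38575, and Cry2 had 4.83 and 4.3 in an intron at 5962 bp. These 4 genes thus had distal peaks of more than 4 in both replicates. Per3 had 2.68 and 2.26 at -28879 bp inside Camta1, Per2 had 2.09 and 0.752 in an intron at 30503 bp, and Npas2 had 0.428 and 0.335 at 60256 bp. Clock had no distal peak in either replicate.

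**Figure D5:**
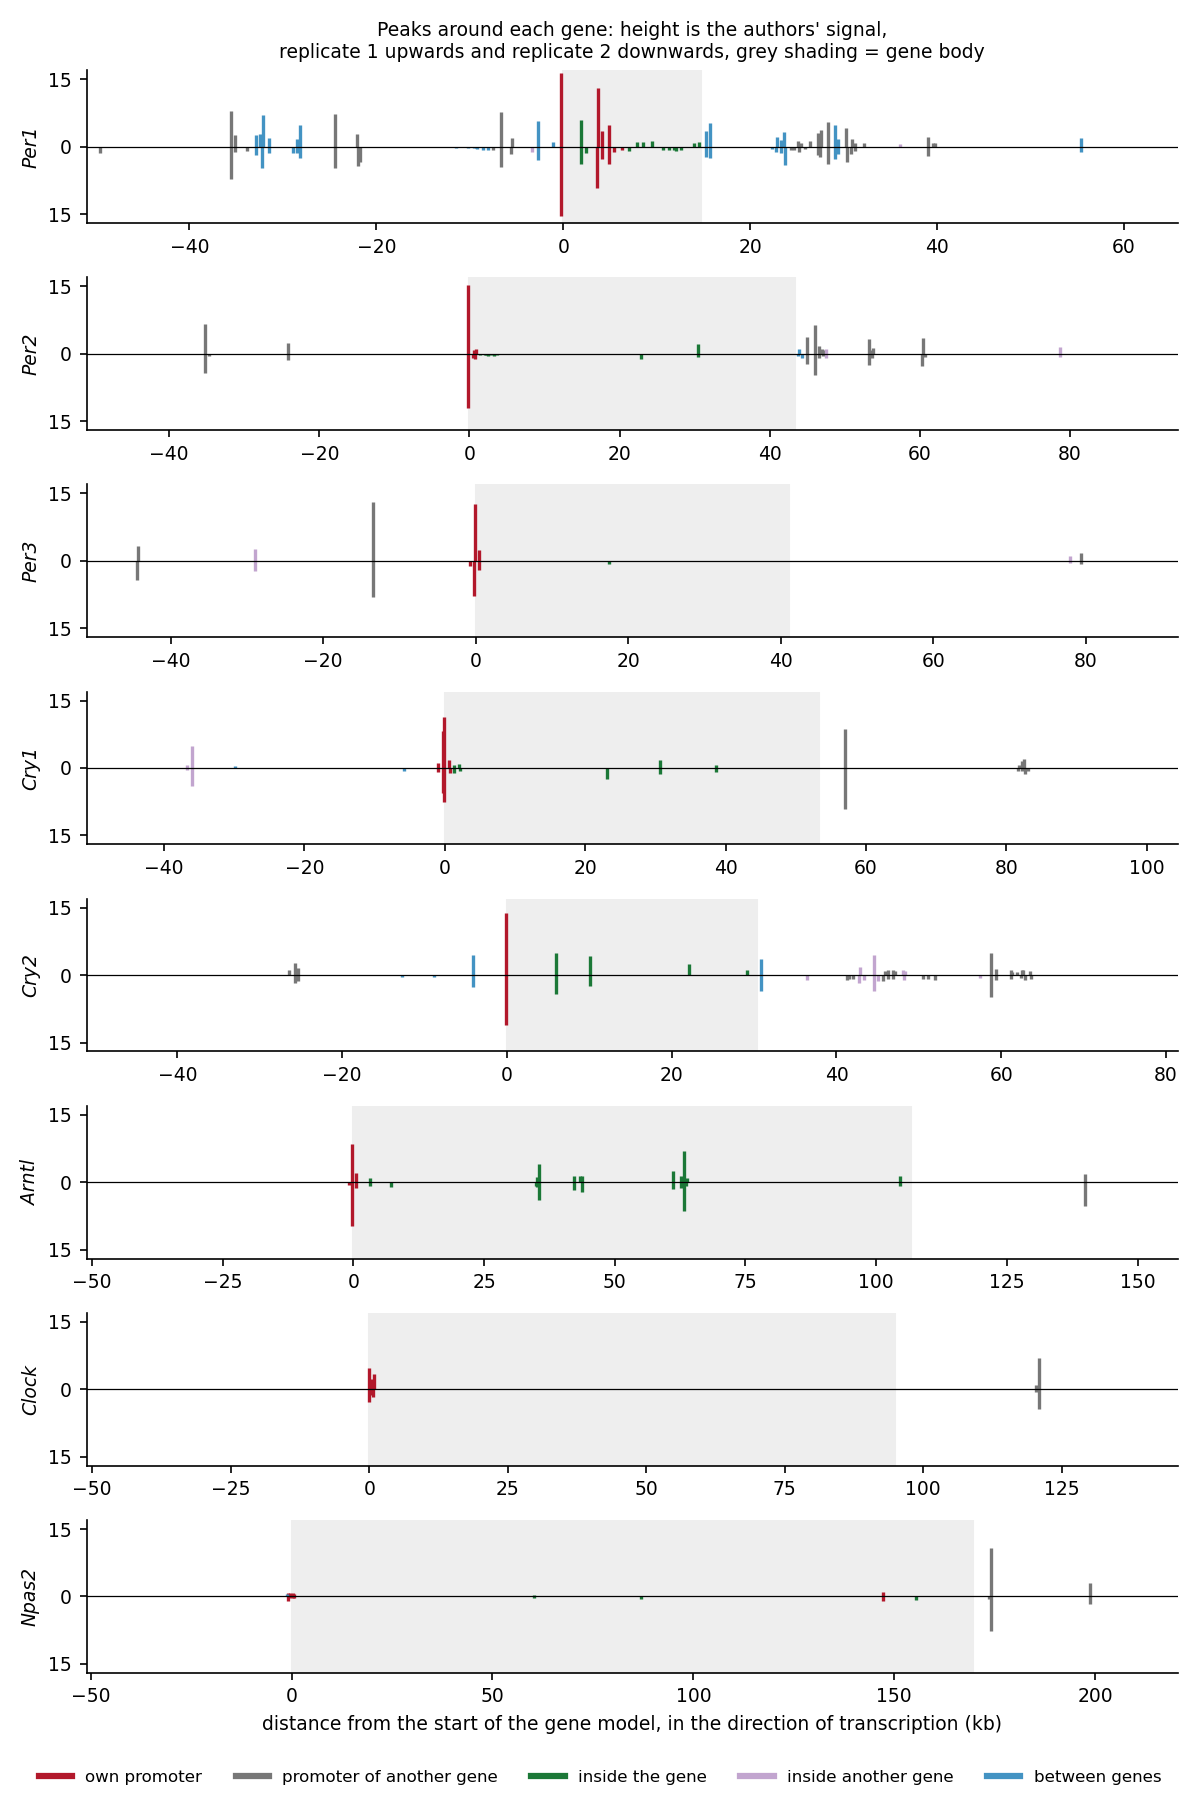
Stricter peaks around each clock gene by distance from the start of the gene model (horizontal axis, kb, in the direction of transcription), with the authors' signal as height, replicate 1 upwards and replicate 2 downwards, coloured by place, and the gene body shaded grey. Own promoters (red) are the tallest in both replicates at Per1, Per2, Cry2 and Arntl, the Arntl gene body holds a series of peaks that match between replicates, and the Clock gene body holds none beyond its promoter.

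Clock elements in footprints also occurred inside the gene models, away from the annotated starts. The sites below were chosen after their values had been seen, because the motif lay in a footprint of both replicates or, for Cry1, because the replicates differed. Capitals mark the CRE in Per1, the E-box in Arntl, RORE cores in Cry1, and a RORE core and E-boxes in Cry2. The first pair spans the footprints plus 3 bases on each side, and the other pair shows whole peaks, all from mm10 on the gene's strand.
Per1 intronic CRE, chr11:69097171-69097216, plus strand: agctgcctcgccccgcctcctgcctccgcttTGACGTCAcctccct
Arntl intronic E-box, chr7:113210571-113210599, plus strand: ccctgtggctttggaCACGTGcccggctt
Cry2 intronic peak, chr2:92423821-92424040, minus strand: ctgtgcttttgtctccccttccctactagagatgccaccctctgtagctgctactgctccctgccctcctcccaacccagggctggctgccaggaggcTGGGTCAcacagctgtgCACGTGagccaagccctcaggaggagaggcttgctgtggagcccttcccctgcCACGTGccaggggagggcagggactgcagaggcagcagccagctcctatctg
Cry1 intronic peak, chr10:85161841-85162040, minus strand: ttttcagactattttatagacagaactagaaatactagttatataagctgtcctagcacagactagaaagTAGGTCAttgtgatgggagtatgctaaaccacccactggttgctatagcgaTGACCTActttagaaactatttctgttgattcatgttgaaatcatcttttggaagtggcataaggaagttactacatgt

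Per1, which is known to respond to cyclic AMP, had its CRE in a footprint 1977 bp after the start of the gene model in both replicates. The word intronic follows that gene model. The first RefSeq promoter entry of Per1 spans 69098699 to 69098998, and by the RefSeq entries the CRE lay upstream of the gene. The CRE lay inside a peak of 5.84 in replicate 1 and just outside the narrower peak of 3.77 in replicate 2. Near all coding starts, 88.4% and 88.3% of CRE matches in peaks lay in a footprint, so a footprint on an open CRE was common. The Arntl E-box lay 3120 bp into the gene, within a weak peak of 1.04 and 0.815. The Cry2 peak, 10112 bp into the gene and also within D930015M05Rik, had 4.31 and 2.42. It held 2 E-boxes and a RORE core, and the RORE core and the E-box farther from the start lay in a footprint in both replicates, the latter outside the narrower peak of replicate 2. The E-box nearer to the start, at 10120 bp, lay in a footprint of replicate 2 alone.

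The Cry1 peak was the sharpest difference between the libraries in the 8 windows. It lay in an intron 23123 bp after the start (chr10:85161841-85162040) and held a pair of RORE cores in opposite directions. Cry1 is known to be controlled through ROR response elements in an intron as well as through its promoter. In replicate 2 the peak had a signal of 2.37 and 2 footprints, 1 of them on a RORE core. In replicate 1 it was in neither peak list, and its 200 bp held 0 footprints and 0 bases with a false discovery rate under 0.05. Of 14056 peaks of replicate 2 with a signal at least as high, 95 (0.676%) were in neither list of replicate 1. The other peaks of 2 or more found in the stricter list of 1 replicate were both in the longer list of the other: 3.5 in replicate 2 at -21706 bp from Per1, and 2.53 in replicate 1 at 22122 bp into Cry2. The sources used here do not give whether time of day, animals or handling differed between the pools.

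Agreement between the replicates was otherwise close to that of the whole lists. In the windows 83.7% of the peaks of replicate 1 and 65.7% of those of replicate 2 were found in the other replicate, against 76% and 66.1% of all peaks. All peaks of Clock were shared, as were all peaks of Per2 and Per3 in replicate 1. At Per2, 11 peaks of replicate 2 had no partner, of which the strongest had a signal of 1.06, and 9 peaks lay inside the gene in replicate 2 against 1 in replicate 1. The windows held 792 and 872 footprints, of which 54% and 49% were shared, against 51% and 50.6% of all footprints. Per gene they ran from 282 ± 27.1 per 100 kb (SD, n = 2) at Per1 to 13.7 ± 2.62 at Npas2, with medians over coding genes of 19.4 and 19.2.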

How the data were processed

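DNase-seq was measured in 2 libraries of 1 group, biological replicates 1 and 2 of the labels. Per library, the authors deposited 2 lists of peaks with a signal value per peak (a coverage measure of unstated scale), footprints that all carry the value 0.01, and intervals with the false discovery rate (a q-value, listed under 0.05) of the local cut rate, in mm10 per the labels. The sources used here do not give aligner, callers or read numbers. The stricter list was the one whose every peak held a base with a rate under 0.001; in the longer list 64.079% and 63.94% did. The stricter list was used, with GENCODE release M21 starts and the GRCm38 sequence. Shared peaks or footprints overlapped by at least 1 bp. Motifs were searched in footprints widened by 3 bases. Values set beside the 8 genes come from 21911 coding genes, and no test was made, since there is 1 group. The 8 genes, gene lists and motifs were chosen with earlier results of these data known. By rule, named genes are the 8, their neighbours with TSS peaks in both replicates and the 3 other clock genes with the highest mean signal. Others are named where a peak or promoter entry lay in them, or where said to be picked after their values were seen. Camta1, named by that rule, has its peak outside the Per3 window. Scripts ran in Python 3.11.15 with numpy 2.4.6, pandas 2.3.3 and pysam 0.24.0, and overlap counts and motif searches were tested on simulated intervals and sequence.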

Additional observations from a re-analysis of the deposited data

How the results depend on the processing

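Counts were held to have moved where they changed by more than 1.5 times, and shares and signals where they changed by 1 SD of the replicates or more. Of 97 alternatives, 90 left the value in place and 7 moved it. Reversal was not looked for. The 90 include the TSS signals with 1 replicate left out. These could not move by this rule, because the mean of 2 values lies within 1 SD of each. With the longer list the TSS signals of all 8 genes were unchanged. They follow the strongest peak alone, which added weaker peaks cannot alter. The count of genes with a TSS peak could not rise above 8, and a fall to 7 did not count as moved. The 90 thus overstate how firm the values are. In the following, values are means of the replicates. The longer peak list raised the distal peaks in the windows from 72 to 115. Keeping peaks with a signal at or above the median of their list left 92.5 of 158 peaks and 37.5 distal ones, and 7 of the 8 genes then had a TSS peak in both replicates. Requiring an overlap of 50% of both intervals lowered the share of shared peaks from 74.7% to 54.36% and of shared footprints from 51.5% to 38.19%. Counting footprints inside stricter peaks alone left 502.5 of 832. With a TSS window of 0.5 kb the signal of Npas2 was 0.599 in place of 1.02. Leaving out a replicate gave 141 to 175 peaks, 60 to 84 distal peaks, 792 to 872 footprints and 8 to 11 footprints with an E-box. The count of E-boxes in peaks near the starts that lay in a footprint was 5, and 4.5 to 5.5 under 3 alternatives chosen after seeing the data. No paired analysis was possible because there is 1 group. The 7 genes with a clock element in a footprint of both replicates were 6 to 7 under 4 further alternatives chosen likewise. Depth is unknown, so its part in weak peaks found in 1 library was not tested, and footprints, which all carry the same value, have no order of strength.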

Other observations

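Paralogs among the other clock genes differed widely in the signal of their TSS peaks. Csnk1d, a casein kinase that phosphorylates PER proteins, had 14.2 in replicate 1 and 8.52 in replicate 2 (11.4 ± 4.02, SD, n = 2), while its paralog Csnk1e had 2.68 and 1.39 (2.04 ± 0.914). The values of these kinases did not overlap. Arntl2, the paralog of Arntl, had 0.699 and 0.461, below both values of Npas2. These 3 genes were picked after their values had been seen.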
